A study of Homo sapiens with 26 samples.

Results

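The regions described here held an estrogen receptor (ER) site after estradiol in PR-deficient T47D cells, with and without the progestin R5020, and no called site in any other list. All sites of 10 deposited lists were merged into 64490 union regions (overlap of 1 bp or more). A member held a site of the PR-deficient ER list of estradiol (E2) and of the PR-deficient ER list of E2+R5020, and none of the PR-deficient ER list of R5020 or of the 7 lists of T47D cells. This gave 1186 members, 1.84% of all union regions (exact Clopper-Pearson 95% interval 1.74 to 1.95). The members were chosen from these same lists, so that their presence in 2 lists and absence from 8 is the rule and not a result.

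T47D, a breast cancer cell line of human origin, carries ER and the progesterone receptor (PR), and the other line is labelled as an ER+/PR-deficient model of it. The sources used here do not say how PR was lost or whether the line is 1 clone, and the 10 lists include no PR immunoprecipitation of the PR-deficient cells by which the label could be checked. All cells had been kept without steroids for 48 h before 45 min of hormone. The lists of PR-deficient cells are ER after 10 nM E2, after 10 nM E2 with 10 nM R5020, and after 10 nM R5020. The lists of T47D cells are ER after the same 3 treatments, PR after the same 3 treatments, and a reChIP after both hormones, in which ER is precipitated first and PR from what was recovered. Each of the 10 lists came from 1 library, and the 26 samples formed 26 groups of 1 library. No value has a replicate error and no test was made. All intervals cover counting error over sites only.

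Estradiol is the main natural estrogen, and R5020 (promegestone) is a synthetic progestin that activates PR. ER is a ligand-activated transcription factor that binds DNA as a dimer, most directly at estrogen response elements, or is held at DNA by other factors. In breast cancer cells most ER sites lie far from gene starts, at enhancers opened by pioneer factors such as FOXA1 and GATA3. Liganded PR is known to bind near ER and to change where ER is found on chromatin, which is the setting of the comparison between both lines. Which genes and response elements lie at the members was not analysed here.

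The lists differed in how they were cut. The median site was 1076.5 bp wide in the PR-deficient E2 list (7742 sites) and 1329 bp in the PR-deficient E2+R5020 list (5663 sites), and 1171 bp in the T47D ER list of E2 (4014 sites). In the other 7 lists the median site was 149 to 292 bp wide. Scores rose in even steps. Both PR-deficient estradiol lists started at 16 steps, and the T47D ER list of E2 at 26 steps. Read depth is unknown, and a place without a called site is not shown to lack the receptor. Per the labels, each line had a vehicle library of its own to subtract, which the 2 lists that define the members share. Loss of PR, other differences between the lines and the vehicle libraries cannot be told apart.

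Both PR-deficient estradiol lists placed ER at 4198 union regions, called co-called regions below. Of these, 1186 were members, 28.3% (26.9 to 29.6), and this share is fixed by the rule. The members held 1200 of the 7742 PR-deficient E2 sites (15.5%, 14.7 to 16.3) and 1191 of the 5663 E2+R5020 sites (21.0%, 20.0 to 22.1). A T47D ER site of E2 lay in 1355 co-called regions (32.3%, 30.9 to 33.7), whatever other sites they held, and these 1355, called shared regions below, are the main reference. A T47D site of any kind lay in 2483 co-called regions (59.1%, 57.6 to 60.6). The other 1715 co-called regions (40.9%, 39.4 to 42.4) held sites of PR-deficient lists only. For scale, 16.1% of all union regions did so. Both shares include regions with an R5020 site of PR-deficient cells, which members lack.

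The list that kept most regions from being members was the T47D ER list of E2. It was the only further list at 750 co-called regions, so the members would number 1936 without it. The PR-deficient ER list of R5020 was the only further list at 529 regions, and without it there would be 1715 members. Next was the reChIP list, the only further one at 186 regions (1372 members without it). The other 5 lists each did so at 19 to 74 regions: 74 for T47D ER with both hormones, 72 for PR with both, 46 for PR with E2, 33 for ER with R5020 and 19 for PR with R5020.

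For T47D sites, few regions lay within 50 bp of the overlap limit of the rule. The member count itself moved with other settings of overlap and score, from 341 to 2561. The smallest overlap of the E2 site with the E2+R5020 site of a member was 330 bp, at chr3:124011125-124011664. The members closest to a T47D site were chr16:89001701-89003789, 17 bp from a reChIP site, chr7:55248021-55249534, 33 bp from a PR site of R5020, and chr12:122230305-122233510, 69 bp from a PR site of E2. Just outside the rule, chr3:193498164-193499887 met a T47D site over 50 bp, chr14:73390638-73392438 over 57 bp and chr8:144979827-144981100 over 67 bp. Of the 2483 co-called regions with a T47D site, 2 met it over 50 bp or less, and 2 of the 1186 members had a T47D site within 50 bp.

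A member holds sites of 2 lists only, so its E2 and E2+R5020 sites must overlap by the rule. Some agreement in place between the treatments was thus fixed in advance, and only its degree is described here. A single site of each list formed 1169 of the 1186 members (98.6%, 97.7 to 99.2). Another 12 held 2 E2 sites and 1 E2+R5020 site, 3 held 1 and 2 of these, and 2 held 2 of each. The centres of the paired sites lay a median of 98 bp apart, within 200 bp at 874 members (73.7%, 71.1 to 76.2). In 1109 members (93.5%, 92.0 to 94.8) the sites overlapped by at least 50% of both, and in 621 (52.4%, 49.5 to 55.2) 1 site lay wholly within the other. In the 1355 shared regions the median distance of the centres was 92 bp, 79.6% (77.3 to 81.7) had centres within 200 bp and 95.2% (93.9 to 96.3) overlapped by 50% of both. In both classes the paired sites mostly overlapped by at least 50% of both, with centres within 200 bp somewhat less often in members.

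Sites carry a score set by the authors, of unstated unit, which was used to order them within a list. The members spanned nearly the whole range of both lists. In the E2 list their scores ran from 25.8, the lowest kept, to 432.17, with a median of 46.77. In the E2+R5020 list they ran from 25.5, again the lowest kept, to 376.11, with a median of 33.47. At the lowest score kept lay 52 of the 1186 members in the E2 list and 155 in the E2+R5020 list. Member sites were 6.97% of the lowest score decile of the E2 list, against 15.5% of the whole list. For the E2+R5020 list these shares were 20.8% and 21.0%. The median member stood at percentile 59.7 of the E2 list (95% interval of the median 57.7 to 61.5) and at percentile 51.0 of the E2+R5020 list (45.8 to 51.0), where 100 is the highest score. The shared regions stood at percentile 80.4 (78.7 to 81.3) and 70.9 (68.9 to 72.7), and regions of 1 list alone at percentile 26.9 of the E2 list (1943 regions) and 20.9 of the E2+R5020 list (648 regions). The members hence lay between shared and single-list regions in both. These classes were chosen by called sites of the same lists, so this order can be set in part in advance. The 529 regions kept out by a PR-deficient R5020 site alone stood at percentile 44.4 (40.9 to 47.6) with E2. With both hormones they stood at 51.0 (51.0 to 55.2), as the members did.

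**Figure D1:**
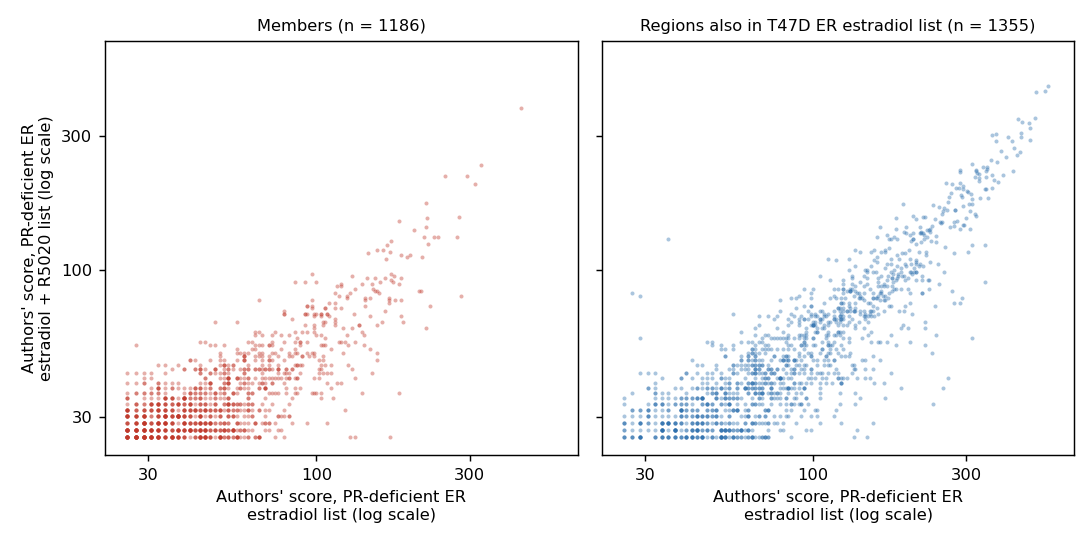
Scores of the paired sites of each region in the PR-deficient ER lists of E2 (horizontal) and E2+R5020 (vertical), both on log axes, 1 point a region: members on the left, regions that also held a T47D ER site of E2 on the right. The members had medians of 46.77 and 33.47, against 40.31 and 33.47 for all sites of the lists. The shared regions had higher medians, of 80.63 and 44.62.

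The lists differ in length, so the scores were also ordered among the 4198 co-called regions alone. There the median member stood at percentile 38.4 by its E2 score and 38.2 by its E2+R5020 score, and 604 of 1186 members (50.9%, 48.0 to 53.8) stood higher with both hormones than with E2. The members thus stood in the same part of the order with both treatments. The shared regions stood at percentile 66.5 by the E2 score and 61.6 by the E2+R5020 score, and 38.4% of them (35.8 to 41.0) stood higher with both hormones. Across members, the E2 and E2+R5020 scores had a Spearman rho of 0.64 (n = 1186 regions, which share 2 libraries), and across shared regions of 0.83 (n = 1355). The quartiles of the E2+R5020 score were 28.69 and 43.03 in members, against 31.87 and 71.72 in shared regions. The rhos thus rest on unlike ranges of score, and their difference was not tested.

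Members were few among the highest-scoring sites. The 100 highest E2 sites included 1 member site, and so did the 100 highest E2+R5020 sites, while the 1000 highest included 115 and 118. For scale, member sites were 15.5% of the whole E2 list and 21.0% of the whole E2+R5020 list. In the highest-scoring decile of the E2 list, 10.5% of the sites lay in members and 47.2% in shared regions. Decile 4 held 24.4% and 20.7%, and from there on member sites were the more frequent of both kinds. In the lowest decile they made up 6.97%, against 1.68% for sites in shared regions. In the E2+R5020 list the highest decile held 6.89% and 40.6%, and the order turned at decile 5, with 23.3% and 21.4%. Its lowest decile held 20.8% and 15.9%. The lowest deciles consist of tied scores, ordered there by width.

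**Figure D2:**
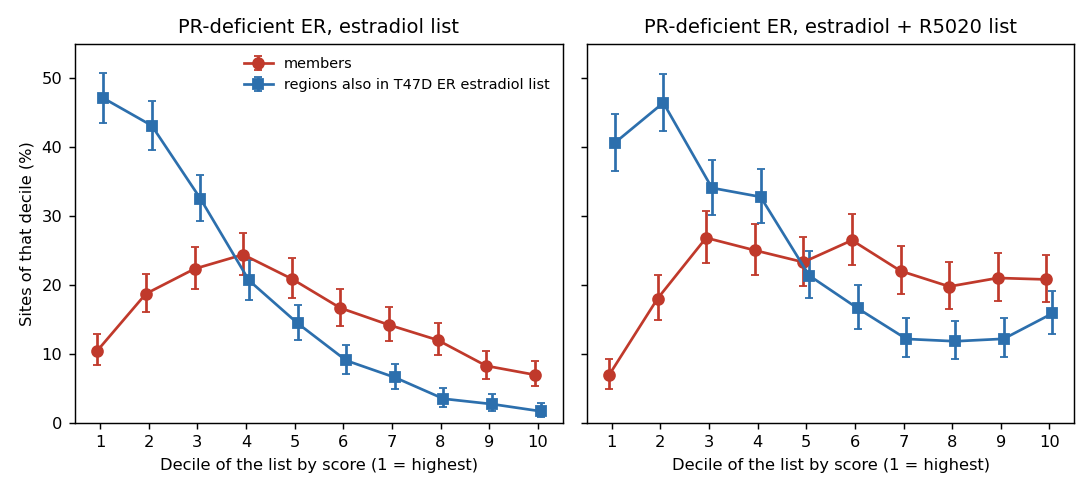
Share of the sites in each score decile (1 is the highest) of the PR-deficient ER lists of E2 (left) and E2+R5020 (right) that lay in members (circles) or in regions that also held a T47D ER site of E2 (squares); bars are exact 95% intervals over sites. Member sites are 10.5% and 6.89% of the highest decile and the more frequent kind from decile 4 and decile 5 on.

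By strength in both lists, 475 members (40.1%) stood in the upper 50% of both, 352 (29.7%) in the lower 50% of both, 269 (22.7%) were high with E2 only and 90 (7.59%) high with both hormones only. No such split is given for all co-called regions. Their medians stood at percentile 68.7 of the E2 list and 61.6 of the E2+R5020 list, above the members' 59.7 and 51.0. The strongest group, the top decile of both lists, held 35 members on 19 chromosomes.

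The strongest member was chr19:1511746-1514821. Its site ranked 62 in the E2 list, with a score of 432.17 over 2979 bp, and 38 in the E2+R5020 list, with 376.11 over 2340 bp. The closest T47D site, of ER with both hormones, lay 5.96 kb away, and the closest T47D ER site of E2 9.65 kb away. A T47D site was thus near this place, but not on it.

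Next in both lists was chr21:45594883-45596858. It ranked 137 with E2 (score 325.74) and 110 with both hormones (235.86), and a T47D PR site of E2 lay 4.07 kb away. In all, 6 regions were among the 10 highest members of both lists, so that 14 places make up both sets. The other 4 shared ones were chr16:56902993-56905604 (ranks 159 with E2 and 162 with both hormones), chr6:150038345-150039822 (183 and 142), chr2:228330605-228331741 (208 and 254) and chr10:77021350-77023169 (260 and 140). They differed in their surroundings.

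The member on chromosome 16 had no T47D site within 128 kb, whereas that on chromosome 6 had a T47D ER site of both hormones 445 bp from its edge and its closest T47D ER site of E2 128 kb away. On chromosome 2 the closest T47D site was a PR site of both hormones at 33.2 kb, and on chromosome 10 a reChIP site at 15.9 kb. Of the 14 places, 4 had a T47D site of any kind within 10 kb and 2 a T47D ER site of E2. Strong members were thus seen both beside T47D sites and far from them.

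The 4 places among the highest with E2 only were chr11:123204974-123206339 (rank 203), chr17:70636106-70637369 (214), chr5:2674773-2676901 (279) and chr19:52053609-52054968 (291). The first of them had the lowest place with both hormones, rank 675 with a score of 81.28, against a score of 282.2 in the E2 list. The others ranked 330 to 337 with both hormones. The 4 places among the highest with both hormones only were chr7:98423746-98425174 (rank 214), chr12:2733549-2735291 (258), chr1:202074640-202078029 (264) and chr1:62107852-62109255 (289). They ranked 334, 323, 465 and 332 with E2, so that none of them was weak there.

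At the other end were small sites at the lowest score. The member with the lowest E2 rank, chr19:44952243-44952984, had a score of 25.8 over 514 bp and a score of 27.09 over 742 bp with both hormones. The next were chr11:103644195-103644854 and chr19:18145484-18146150. The lowest in the E2+R5020 list were chr4:185458286-185459143, chr13:109363400-109364239 and chr7:2850496-2851422, all with a score of 25.5 over 444 to 477 bp. The second of these stood at percentile 55.3 of the E2 list, so that a member could be weak in 1 list only.

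Member sites were wider than those of shared regions of like score. Their median width was 1146.5 bp with E2 (95% interval of the median 1118 to 1183) and 1166.5 bp with both hormones (1127 to 1228). In the shared regions it was 1076 bp (1059 to 1101) and 1041 bp (1016 to 1063), although their scores were higher, and sites of 1 list alone had 892 bp with E2 and 1254 bp with both hormones. Member sites were narrower than those of all 4198 co-called regions, with medians of 1263 and 1301 bp. They were also narrower than those of the 529 regions kept out by a PR-deficient R5020 site alone, which had 1434 bp at a median score of 37.09 with E2 and 1607 bp at 33.47 with both hormones. In each of the 10 score deciles of either list the median member site was wider than the median site in a shared region. In deciles 8 to 10 of the E2 list, the shared regions gave only 27, 21 and 13 sites. The lowest deciles consist of tied scores ordered by width, so widths there are not compared at like score alone. In the highest decile the medians were 1453 bp and 1293 bp with E2, and 1615 bp and 1356.5 bp with both hormones. Width followed score less in members (Spearman rho of 0.11 with E2 and 0.15 with both hormones) than in shared regions (0.36 and 0.37). The quartiles of score lay closer together in members, so these rhos rest on unlike ranges. A wide site has more room to meet a narrow T47D site, and being without one is the rule for members but not for shared regions.

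**Figure D3:**
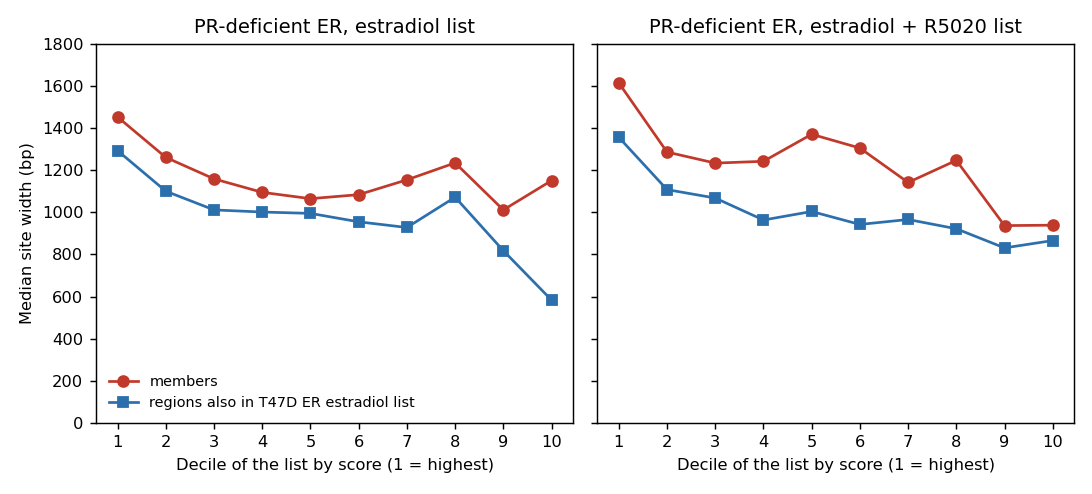
Median width in bp of the sites in members (circles) and in regions that also held a T47D ER site of E2 (squares), by score decile (1 is the highest) of the PR-deficient ER lists of E2 (left) and E2+R5020 (right). The member line lies above the other in all 10 deciles of both lists. In deciles 8 to 10 of the E2 list, the other line rests on 27, 21 and 13 sites.

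Merged, the members were 540 to 7042 bp wide, with a median of 1371 bp. The widest were chr17:81053874-81060915 (7042 bp), chr20:31328601-31334114 (5514 bp) and chr21:47419595-47424791 (5197 bp). None of these 3 was among the 1000 highest E2 sites, with ranks of 1542, 1160 and 3217 for the paired E2 sites. The paired E2+R5020 sites ranked 1957, 964 and 2638, so the member on chromosome 20 was among the 1000 highest there. The width came from the E2 site on chromosome 17, from the chain of sites on chromosome 20 and from the E2+R5020 site on chromosome 21.

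Distance to the other lists was not set by the rule beyond the overlap. A T47D ER site of E2 lay within 10 kb of 146 members (12.3%, 10.5 to 14.3), against 5.99% of all union regions without such a site. The members' share moved with the settings. It was 20.7%, against 7.61% of all such regions, with sites of 200 bp, and 7.63%, against 3.19%, with the higher-scoring 50% of each list; these shares of all regions were added after the data were seen. With centres within 200 bp it was 23.1% of the members, and the share of all regions was not computed there. For the other 7 lists the members' share was below that of all regions without a site of the list. With R5020, T47D ER sites lay within 10 kb of 8.52% of the members (6.99 to 10.3), against 18.0% of all such regions, and PR sites of 8.94% (7.38 to 10.7), against 16.0%. With both hormones, T47D ER sites lay near 17.6% (15.5 to 19.9), against 23.7%, and PR sites near 16.2% (14.1 to 18.4), against 23.0%.

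PR sites of E2 lay near 14.2% (12.3 to 16.4) of the members, against 19.7%, and reChIP sites near 14.9% (12.9 to 17.1), against 19.9%. In PR-deficient cells, ER sites of R5020 lay near 16.0% (14.0 to 18.2), against 21.9%. The regions of the PR-deficient E2 list alone, or of the E2+R5020 list alone, also lay below all regions for each of these 7 lists: for T47D ER sites of R5020, 6.69% and 9.10% against 18.0%. Stretches of at least 3 Mb that hold no site of any list were treated as gaps, and regions up to 2 Mb from such a gap were 9.24% of all union regions and 2.61% of the members. With these left out, a choice made after the data were seen, the share with a T47D ER site of E2 within 10 kb was 12.6% of the members and 6.33% of all such regions, and the other 7 shares stayed below those of all regions, with the smallest gap for reChIP (15.2% and 16.9%).

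**Figure D4:**
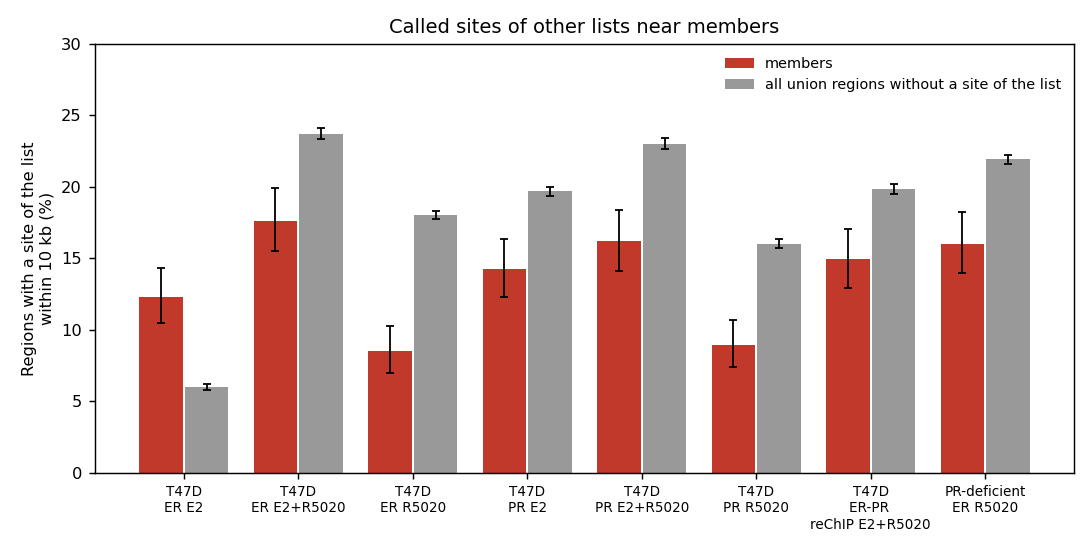
Percentage of regions with a called site of the named list within 10 kb, for the 1186 members (left bar of each pair) and for all union regions without a site of that list (right bar); bars start at 0 and whiskers are exact 95% intervals over regions. The members lie above for T47D ER with E2, at 12.3% against 5.99%, and below for the other 7 lists.

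Neither this nearness to T47D ER sites of E2 nor the lower shares for the other 7 lists were particular to the members. The share near T47D ER sites of E2 was 14.2% (12.6 to 15.8) for the 1943 regions held by the PR-deficient E2 list alone and 7.25% (5.38 to 9.53) for the 648 held by the E2+R5020 list alone, so the members stood closer to the E2-only regions. Within 1 kb, 22 members (1.85%, 1.17 to 2.80) had such a site, against 0.704% of all union regions without one. The share was 2.68% for the regions of the E2 list alone and 1.23% for those of the E2+R5020 list alone. The closest members were chr12:48148034-48149151 at 98 bp, chr7:69111422-69112500 at 180 bp and chr3:11808419-11810785 at 252 bp. The region on chromosome 7 ranked 345 with E2 and 339 with both hormones. It is therefore a strong PR-deficient site with a T47D estradiol site directly beside it.

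A T47D site of any of the 7 lists lay within 10 kb of 566 members (47.7%, 44.8 to 50.6), against 57.6% of all regions that held sites of PR-deficient lists only. The members stood between the regions of the E2 list alone, at 43.5% (41.3 to 45.7), and those of the E2+R5020 list alone, at 50.6% (46.7 to 54.5). Strong and weak members were close in this share. It was 48.2% (43.6 to 52.8) of the members in the upper 50% of both lists and 47.2% (41.8 to 52.5) of those in the lower 50% of both. For T47D ER sites of E2 alone the shares were 13.1% (10.2 to 16.4) and 10.2% (7.27 to 13.9), with intervals that overlap. No T47D site lay within 100 kb of 73 members (6.16%). Such a site lay within 100 kb of 93.8% of the members (92.3 to 95.1), against 95.2% of all regions with sites of PR-deficient lists only. It did so for 90.9% of the regions of the E2 list alone and 95.7% of those of the E2+R5020 list alone. The farthest, chr7:134128304-134130230, was 464 kb from any T47D site and ranked 1402 with E2 and 1879 with both hormones.

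The members were spread over 23 chromosomes, all but Y. Their density was 0.383 per Mb of chromosome length, measured up to the last site of any list, and was greatest on chromosome 19, with 89 members (1.51 per Mb), and chromosome 17, with 84 (1.03 per Mb). It was lowest on chromosomes 4 (26 members, 0.136 per Mb) and 18 (13 members, 0.167 per Mb). Chromosomes 19 and 17 are known to be rich in genes, and chromosomes 4 and 18 to be poor in them. Members and all co-called regions followed each other over 23 chromosomes (Spearman rho of 0.94 between their densities, which share regions and chromosome lengths).

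The share of co-called regions that were members ranged from 18.4% (13.2 to 24.5, 36 of 196) on chromosome 14 to 47.1% (35.1 to 59.4, 33 of 70) on chromosome X, around 28.3% overall. On chromosome X, 42.9% held a T47D ER site of E2 and 2.86% an R5020 site of PR-deficient cells without a T47D site. On chromosome 14 these shares were 22.4% and 15.8%. Chromosome 22 stood apart in the ratio of members to shared regions, with 27 against 58 (0.527 and 1.13 per Mb). So did chromosome 18, with 13 against 30. The members' share of co-called regions was near 28.3% on both, at 25% (17.2 to 34.3) and 25.5% (14.3 to 39.6). The share with a T47D ER site of E2 was higher there, at 53.7% and 58.8%, against 32.3% of all co-called regions. On chromosomes 2 and 13 it was also high, at 53.3% and 52.2%. Copy number of either line was not analysed here, and its part in these shares was not tested.

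**Figure D5:**
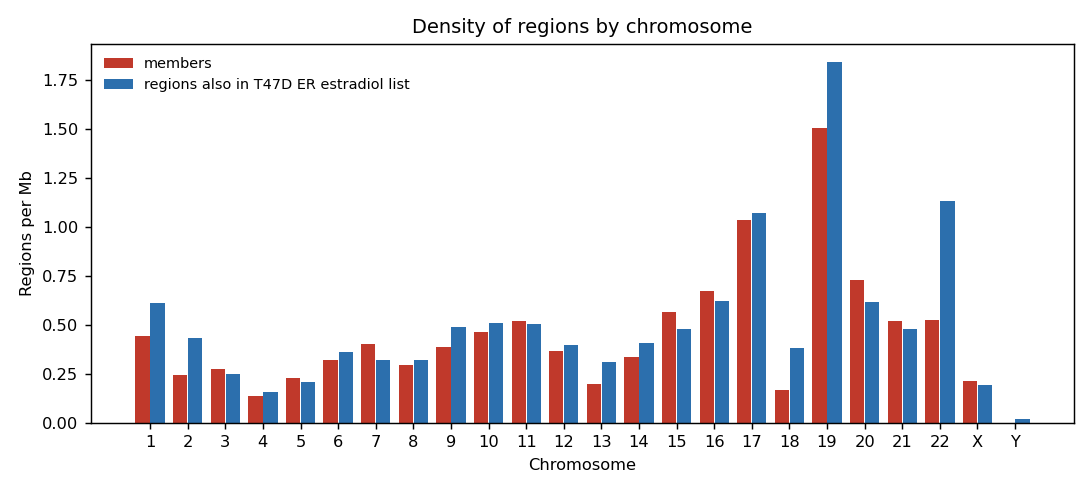
Regions per Mb on each chromosome for members (left bar) and regions that also held a T47D ER site of E2 (right bar). Both are densest on chromosome 19, at 1.51 and 1.84 per Mb, and differ most in ratio, among chromosomes with members, on chromosomes 18 and 22.

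Most gaps between neighbouring members were wider than 100 kb. Spacing was compared with that of the shared regions only, not with randomly placed regions. Neighbouring members on a chromosome were a median of 778 kb apart, and 197 of 1163 such gaps (16.9%) were 100 kb or less, against a median of 539 kb and 299 of 1331 gaps (22.5%) for the shared regions, which are more numerous. In 26 places 3 or more members lay within 100 kb, with 4 members in 4 of them and 3 in the other 22. The densest were chr17:76968658-77024850, chr15:78368803-78428585, chr19:52416014-52484922 and chr21:43299030-43388091, with 4 members each, and then chr19:13263407-13281426, with 3 members in 18.0 kb.

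These places differed in what else they held. On chromosome 15 the 59.8 kb with 4 members held no T47D site of any list, and neither did the 18.0 kb on chromosome 19. The other place on chromosome 19 held 3 regions with a T47D site, 1 of them an ER site of E2, and its members were strong with E2 (scores of 66.12 to 154.81) and weaker with both hormones (25.5 to 47.81). On chromosome 21, 4 regions of the place held T47D sites, 1 of them an ER site of E2. The place on chromosome 17 held 2 such regions, 1 with an ER site of E2, and its members had low scores in both lists (30.64 to 43.54 with E2 and 25.5 to 38.25 with both hormones).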

How the data were processed

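The submitters' processing notes name Bowtie2, MACS and the hg19 build, without versions or settings. Vehicle, and IgG for reChIP, had been subtracted per the labels. Each deposited list comes from 1 library and gives chromosome, start, end, length and score of each site, counted from 1. The deposited score is the authors' own, with no stated unit, and was used as a rank within a list. Depth is unknown.

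Sites of the 10 lists were merged and counted with pandas 2.3.3 and NumPy 2.4.6 under Python 3.11.15. SciPy 1.17.1 gave the intervals and matplotlib 3.10.9 the plots. Where a region held several sites of a list, the pair with the longest overlap was used. Ties in score were ordered by width, then position. Distances are from edge to edge. Intervals of medians are binomial intervals of ranks. Union, rule and distances were tested on simulated lists. The members, references and settings were chosen with earlier results of these data known. Regions were named by rule: the 10 highest members of each list, the 3 lowest, the widest 3, those closest to T47D ER sites of E2 and the 5 densest places; those at the limit of the rule and the farthest one were named after their values were seen. Genes and motifs were not analysed here, because no hg19 sequence or annotation was used here.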

Additional observations from a re-analysis of the deposited data

How the results depend on the processing

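No paired analysis was possible because there is 1 library a group, so no replicate could be left out either. The member count stayed within 1.5 times of 1186 under 9 of 12 settings. It was 2561 with at least 50% of both sites overlapping, since narrow T47D sites then seldom keep a wide site out, 477 with the higher-scoring 50% of the PR-deficient E2 and E2+R5020 lists only, and 341 with their sites of at least 26 steps, chosen after seeing the data. Against 28.3%, the members' share of co-called regions was 65.7% with 50% of both sites overlapping, 48.3% with centres within 200 bp, 43.0% with sites of 200 bp, 36.0% with the higher-scoring 50% of each list, 34.5% with lists of equal length and with the lowest score raised by 1 step (34.47 and 34.50), and 20.5% with the higher-scoring 50% of the 2 PR-deficient estradiol lists only. The median percentile in the E2 list was 78.7 with the higher-scoring 50% of each list, 77.6 with that of the 2 lists only and 74.4 with lists of equal length, and in the E2+R5020 list 74.2, 72.7 and 70.9, with 58.6 under 50% of both and 55.2 with the lowest score raised, most of which follow from leaving out low scores. The median width with E2 was 1380 bp under 50% of both, 1230 with centres within 200 bp, 1247 with the higher-scoring 50% of the 2 lists, 1284 with that of each list, 1328.5 with equal lengths, 1229 with the lowest score raised and 1214 with sites of 200 bp. With both hormones it was 1447, 1243, 1256, 1280, 1343, 1267.5 and 1237.5 bp in that order, and 1239 bp with direct overlap of single sites. The share with a T47D ER site of E2 within 10 kb was 16.9% under 50% of both, 23.1% with centres within 200 bp, 20.7% with sites of 200 bp (these rules leave overlapping T47D sites beside members) and 7.63% with the higher-scoring 50% of each list, in which the T47D list is shorter too. It was 1.85% within 1 kb and 45.5% within 100 kb. Joining sites up to 500 bp apart, dropping chromosome Y with sites near long stretches, or dropping chromosomes 3, 8, 10 and 11 moved none of the 7 results beyond these limits. Planned searches for motifs and gene starts were not run, because no hg19 sequence or annotation was used here. Absence of a site depends on depth and threshold, which the lists do not give.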
